A study of Homo sapiens with 12 samples.

Results

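Among the genes measured in K562 cells, 51 were lower in both DNMT3A knocking-down and RUNX1 knocking-down cells than in cells with the empty vector, in every library. They were chosen by their measured TPM (the share of a library's transcripts that a gene takes after correction for gene length): the lowest of the 3 empty-vector libraries had to reach 3 TPM and to be at least 1.5 times the highest of the 6 knockdown libraries, and the 100 features of highest mean were left out. The shared list has 59317 features, of which 58233 are annotated, and 9550 of these met the TPM limit outside the 100 highest. The rule kept 0.534% of those 9550. Since the falls themselves chose the 51 genes, the falls are described with no test.

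K562 is an established human chronic myeloid leukemia line. All 9 libraries came from K562 pools infected with lentivirus built on the pLKO.1 plasmid and then selected with hygromycin. Of these, 3 carried the empty vector (pLKO), 3 carried shRNA against DNMT3A (shDNMT3A) and 3 carried shRNA against RUNX1 (shRUNX1), and both knockdowns were set against the same pLKO libraries. The cells were stable pools rather than single clones, and the RNA was described as 3 biological replicates for each condition.

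DNMT3A is a de novo DNA methyltransferase, which places methyl groups on cytosine, and methylation at promoters is usually linked to low expression. RUNX1 is a DNA-binding transcription factor of blood cells that works with its partner CBFB and can activate or repress a gene according to the cofactors it meets. The study asked whether RUNX1 brings DNMT3A to common target genes. The genes described here were lower in both knockdowns.

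The annotated features carry only the first 8 characters of an Ensembl gene identifier, which are the same for all of them. They are therefore genes rather than single transcripts, but the files do not pair them with names. Each gene is given here by its position in the shared list, counted from 1. No function is given for a member, the K562 lineage markers could not be looked up, and neither DNMT3A nor RUNX1 could be checked in the libraries labelled as their knockdowns. The study itself reports a check of DNMT3A knocking-down in K562 cells. It also reports a Western blot of RUNX1 knocking-down in K562 cells that stably expressed DNMT3A.

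The hairpins are the sequences that define the groups, so their guide strands are printed here, 5′ to 3′ as in the listed oligos, with the seed (bases 2 to 8) in capitals. The sources used here list 2 hairpins for each gene and do not say which was sequenced.
shDNMT3A#1: aATAATCTccttgaccttggg
shDNMT3A#2: tAGAACTCaaagaagagccgg
shRUNX1#2: tTAAATCTtgcaacctggttc
shRUNX1#3: tTTCTGCCgatgtcttcgagg

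By exact match to GENCODE release 29 transcripts on GRCh38, both DNMT3A targets lie on the minus strand in coding sequence, at chr2:25246176-25246196 in exon 11 and at chr2:25240420-25240440 in exon 19 of a transcript with 23 exons. The target of shRUNX1#2 lies at chr21:34880589-34880609, also on the minus strand, in coding exon 5 of a RUNX1 transcript with 9 exons. The target of shRUNX1#3 crosses coding exons 6 and 7 of that transcript, from 34859474 to 34859480 and from 34834588 to 34834601 on chromosome 21. The 4 seeds all differ. Those of shDNMT3A#1 and shRUNX1#2 have the same base at 5 of 7 positions, and the other pairs at 1 to 3 positions. Whether a seed takes any part in the falls was not tested, since the members have no sequence in the files.

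**Figure D1:**
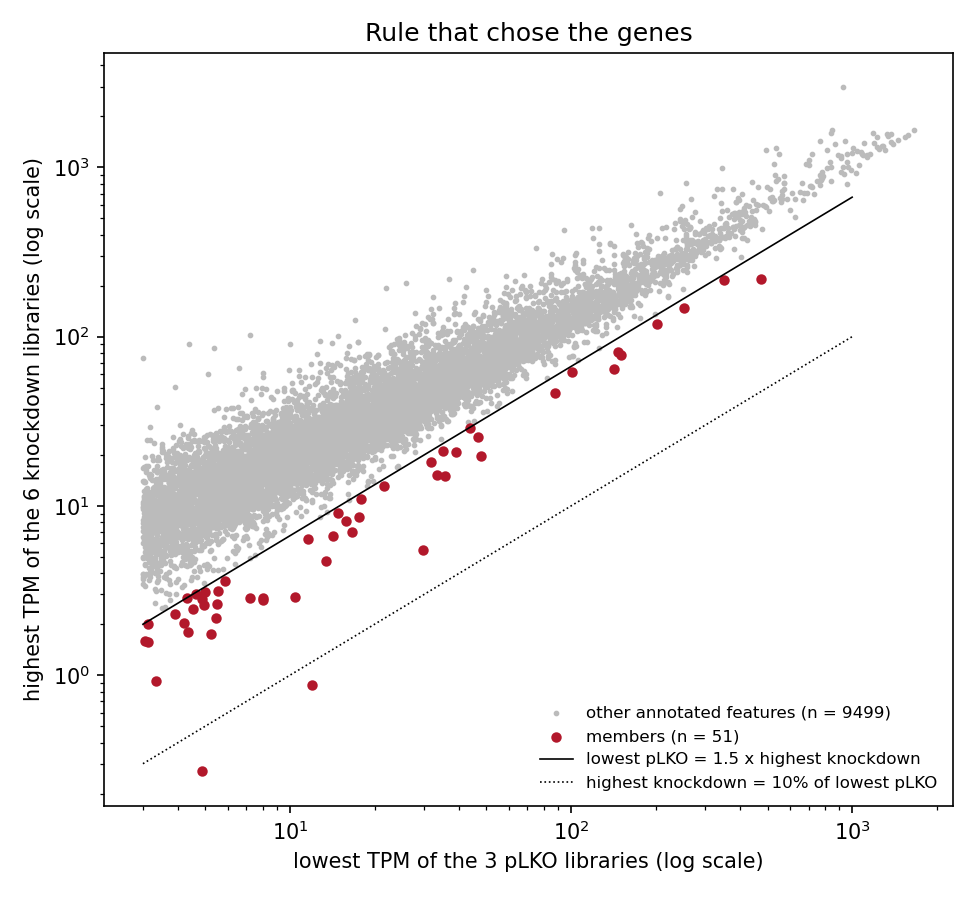
Each point is an annotated feature with at least 3 TPM in every pLKO library, outside the 100 highest; the x axis is the lowest TPM of the 3 pLKO libraries and the y axis the highest TPM of the 6 knockdown libraries, both on log scales. The 51 members (red) lie under the solid 1.5-fold line by construction, 22 of them at or under 50%, and 2 lie under the dotted line at 10%.

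One control library set much of what the rule could pick. In pLKO replicate 1 the median of the 9550 features stood at 0.643 times the mean of replicates 2 and 3, and 85.2% of them were lowest there among the pLKO libraries. For the 51 members the same median ratio was 0.786, and 35 of them were lowest in replicate 1. The 10 highest features took 18.9% of all TPM in that library and between 10.9% and 16.8% in the other 8. Without pLKO replicate 1 the rule took 197 genes, all 51 included. Leaving out a library can only loosen the limits on values, so that overlap is no measure of stability. With median-ratio scaling between libraries it took 109, of which 48 were among the 51, and the genes at positions 11820, 15925 and 42945 then no longer passed. Against the median of all tested features, which lay at 0.13 (shDNMT3A) and 0.20 (shRUNX1) above pLKO on the log2(TPM + 1) scale and at -0.02 and 0.00 after median-ratio scaling, the 51 genes fell in either case.

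Taken one knockdown at a time, the rule kept 111 of the 9550 features in shDNMT3A (1.16%) and 109 in shRUNX1 (1.14%). The 51 genes are those in both, which is the count that the rule fixes, and the knockdowns share their pLKO libraries. Another 2 genes passed but were among the 100 highest. They lay at positions 53982 and 55717, with pLKO means of 6832 and 4442 TPM, and they kept 54.9% and 56.3% of that level in shDNMT3A and 35.1% and 37.8% in shRUNX1. Among the newly assembled features, 3 of 110 met the same limits on values and are not members.

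The threshold had no gap around it. Just inside, the gene at position 15925 had 43.5 TPM in its lowest pLKO library against 28.97 TPM in its highest knockdown library, and the gene at position 10633 had 4.30 against 2.86 TPM. Just outside were the genes at position 57732, with 16.2 against 10.8 TPM, and at position 10354, with 12.8 against 8.63 TPM. On the limit of 3 TPM, the gene at position 1762 was just inside with 3.06 TPM in its lowest pLKO library, and the gene at position 458 was just outside with 2.87 TPM, although no knockdown library of it passed 0.81 TPM.

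The 51 genes covered a wide range of expression. Their mean in pLKO ran from 3.34 to 487 TPM with a median of 16.8 TPM, and 21 were under 10 TPM, 17 between 10 and 50 TPM and 13 at 50 TPM or more. Together they made up 2610, 3043 and 3053 TPM in pLKO replicates 1, 2 and 3. In the knockdowns they made up between 1142 and 1188 TPM in shDNMT3A and between 1118 and 1191 TPM in shRUNX1, so the ranges of the knockdowns overlapped. In bulk RNA, fewer cells that express a gene and less RNA of it in each cell cannot be told apart.

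**Figure D2:**
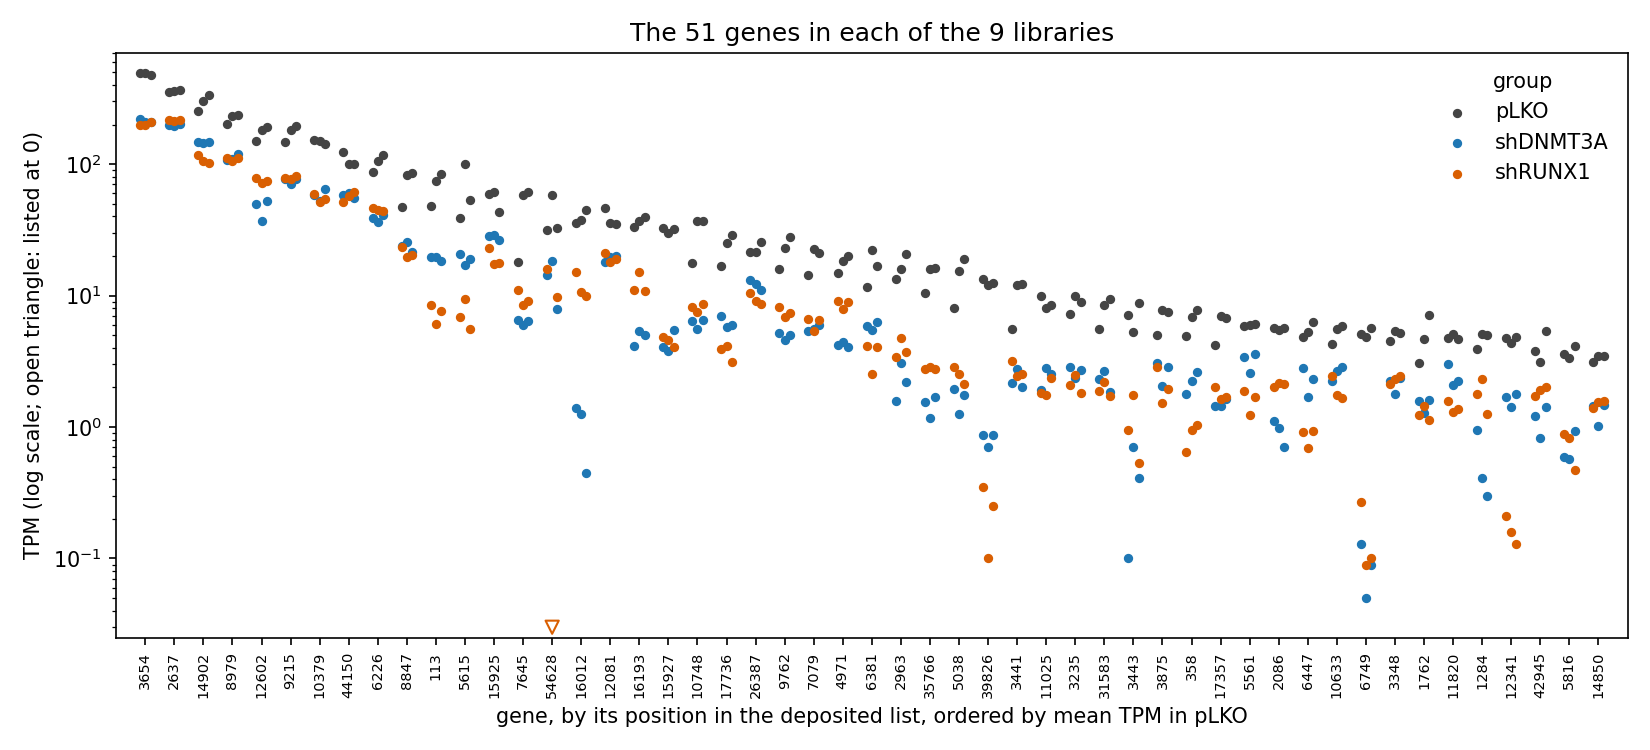
TPM of the 51 genes on a log scale in each of the 9 libraries (points, coloured by group), ordered by their mean in pLKO; the x axis gives positions in the list and the open triangle a value listed at 0. The pLKO points lie above all knockdown points of the same gene, as the rule requires, and the lowest mean percentages left, in at least 1 knockdown, are at positions 6749, 39826, 16012 and 12341.

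The depth of the fall had the same centre in both knockdowns. The rule favours this, since it sets the same ceiling on both and leaves out genes that pass in a single knockdown. The median gene kept 29.5% of its pLKO mean in shDNMT3A, with quartiles at 19.5% and 42.0%, and 29.5% in shRUNX1, with quartiles at 20.3% and 39.7%. Taken by single libraries, that median lay between 28.8% and 30.2% in shDNMT3A and between 27.9% and 32.8% in shRUNX1. Over all 9550 features the median was 107% and 110%. In shDNMT3A 4 genes kept at most 10%, 13 between 10% and 25%, 27 between 25% and 50% and 7 more than 50%. In shRUNX1 these counts were 3, 17, 29 and 2. Most members were therefore reduced and not lost, and 39 of the 51 stayed at 1 TPM or more in all 6 knockdown libraries.

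The median fall was shallowest in the most expressed group, although 3 of the 7 genes that kept more than 50% in shDNMT3A had pLKO means under 50 TPM. With a pLKO mean of 50 TPM or more the median gene kept 42.9% in shDNMT3A and 41.4% in shRUNX1. Between 10 and 50 TPM it kept 20.2% and 23.7%, and under 10 TPM it kept 30.1% and 26.8%. These are descriptions of groups of 13, 17 and 21 genes.

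The highest member was the gene at position 3654. It measured 491, 494 and 475 TPM in pLKO, 220, 209 and 209 TPM in shDNMT3A and 197, 198 and 209 TPM in shRUNX1, which left 43.7% and 41.4%. The libraries of each group were close together and the knockdowns overlapped. The next, at position 2637, had the shallowest fall in either knockdown, from 351, 359 and 363 TPM to 198, 194 and 202 TPM in shDNMT3A and 217, 211 and 215 TPM in shRUNX1, leaving 55.3% and 59.9%. Here the shRUNX1 libraries all lay above the shDNMT3A libraries.

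Position 14902 measured 251, 304 and 335 TPM in pLKO, 147, 144 and 147 TPM in shDNMT3A and 117, 106 and 102 TPM in shRUNX1. By group means it fell further in shRUNX1, to 36.6% against 49.1%, and the knockdowns did not overlap. The difference was not called in the test given below (adjusted p = 0.121 from limma). Position 8979 had 202, 232 and 235 TPM in pLKO, 108, 109 and 119 TPM in shDNMT3A and 112, 106 and 112 TPM in shRUNX1, so close to 50% was left in each, with overlap. In both genes pLKO replicate 1 was the lowest control.

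Near-complete loss in both knockdowns, defined as a highest knockdown library at or under 10% of the lowest pLKO library, was found in 2 of the 51 genes. The deeper was the gene at position 6749. It measured 5.11, 4.88 and 5.64 TPM in pLKO, 0.13, 0.05 and 0.09 TPM in shDNMT3A and 0.27, 0.09 and 0.10 TPM in shRUNX1. That is 1.73% left in shDNMT3A and 2.94% in shRUNX1, and its highest knockdown value was 5.53% of its lowest control. Its pLKO replicate 1 lay between the other controls.

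The second was the gene at position 39826, with 13.4, 11.9 and 12.4 TPM in pLKO, 0.87, 0.71 and 0.87 TPM in shDNMT3A and 0.35, 0.10 and 0.25 TPM in shRUNX1. It kept 6.49% in shDNMT3A and 1.85% in shRUNX1, with all shRUNX1 libraries under all shDNMT3A libraries. Its pLKO replicate 1 was the highest control, so its place in the set does not depend on that library being low. The count of 2 was the same with median-ratio scaling and without any single library, although leaving out a library could only raise it.

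With a limit of 20% only the gene at position 15927 was added, named here after its values were seen. It measured 32.4, 29.9 and 31.9 TPM in pLKO, 4.03, 3.80 and 5.49 TPM in shDNMT3A and 4.88, 4.63 and 4.07 TPM in shRUNX1. The fall was alike in depth, to 14.2% and 14.4%. No further gene came under 25%, and 22 of the 51, these 3 included, had a highest knockdown library at or under 50% of their lowest control. No gene was listed at 0 in all 3 libraries of a knockdown.

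A loss at that 10% limit was also counted for each knockdown taken alone, but only among the members. The rule requires every member to fall in both knockdowns, so a gene lost in 1 knockdown and kept in the other was not counted. How common such a loss was outside the set was not tested. Within the set the limit was met by 3 genes in shDNMT3A and by 3 in shRUNX1. In each case 2 of the 3 were the genes that met it in both. The third was at position 16012 in shDNMT3A and at position 12341 in shRUNX1. Both are described below, since they were also called between the knockdowns.

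**Figure D3:**
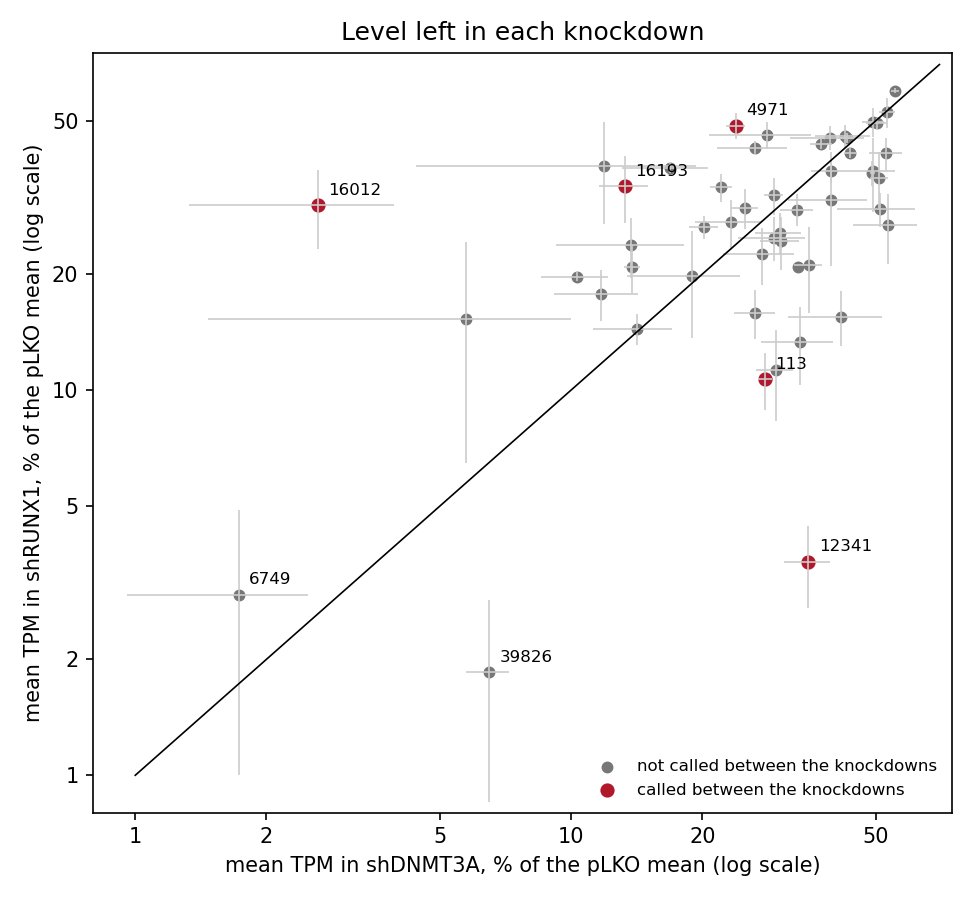
Mean TPM of each of the 51 genes as a percentage of its pLKO mean, in shDNMT3A (x axis) and in shRUNX1 (y axis), on log scales; bars are the SD over the 3 knockdown libraries divided by the pLKO mean (omitted for the 1 gene with a value listed at 0), and the line marks equal levels. The points lie on both sides of the line, 25 under it and 26 over it, and the 5 genes called between the knockdowns (red) have ratios from 0.102 to 11.5.

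Which knockdown fell further is not set by the rule, which caps both knockdowns at the same level but does not use the difference between them. By group means 25 of the 51 genes were lower in shRUNX1 and 26 were lower in shDNMT3A. The share lower in shRUNX1 was 49.0%, against 42.5% of the 15144 features tested. The ratio of the shRUNX1 mean to the shDNMT3A mean had a median of 1.01 and ran from 0.102 to 11.5. It was within 1.5-fold for 26 genes, while 11 genes were at least 1.5-fold lower in shRUNX1 and 14 at least 1.5-fold higher.

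The difference was tested with limma on log2(TPM + 1) in one fit of all 9 libraries, across 15144 features that reached 1 TPM in 3 or more libraries. Calls needed a 1.5-fold difference and p under 0.05 after Benjamini-Hochberg adjustment across all of them. All 51 members were tested. Of them, 2 (3.92%) were called lower in shRUNX1, against 0.627% of all features, and 3 (5.88%) were called higher, against 0.515%. At an unadjusted p under 0.05 with the same fold, 8 were lower and 8 higher, against 2.47% and 3.45% of all features. The fit of all 9 libraries pools the spread of all groups, and the rule favours members whose pLKO libraries lie close together. The shares of members and of all features are therefore not on equal terms. With only the 6 knockdown libraries, 8 members were called lower and 7 higher, against 2.41% and 4.58% of all features.

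The widest difference between the knockdowns was at position 16012. This gene measured 35.5, 37.7 and 45.0 TPM in pLKO, 1.39, 1.26 and 0.45 TPM in shDNMT3A and 15.1, 10.6 and 10.0 TPM in shRUNX1. It kept 2.62% in shDNMT3A and 30.2% in shRUNX1, and no library of one knockdown overlapped the other. The log2 difference, shRUNX1 minus shDNMT3A, was 2.68 (standard error 0.24, 95% interval 2.13 to 3.23, adjusted p = 0.00136 from limma).

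The gene at position 16193 measured 33.3, 36.9 and 39.3 TPM in pLKO, 4.17, 5.37 and 5.01 TPM in shDNMT3A and 11.1, 15.2 and 10.8 TPM in shRUNX1. Its shDNMT3A libraries all lay under its shRUNX1 libraries, with 13.3% and 33.9% left, and the log2 difference was 1.18 (standard error 0.18, adjusted p = 0.0154 from limma). At position 4971 the values were 14.9, 18.3 and 20.1 TPM in pLKO, 4.24, 4.45 and 4.03 TPM in shDNMT3A and 9.04, 7.85 and 8.95 TPM in shRUNX1. It kept 23.9% and 48.5% with no overlap, a log2 difference of 0.87 (standard error 0.17, adjusted p = 0.0427 from limma).

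In the other direction, the gene at position 12341 was the most unequal by ratio. It measured 4.78, 4.35 and 4.83 TPM in pLKO, 1.69, 1.41 and 1.79 TPM in shDNMT3A and 0.21, 0.16 and 0.13 TPM in shRUNX1, so that 35.0% was left in shDNMT3A and 3.58% in shRUNX1. The log2 difference was -1.17 (standard error 0.17, adjusted p = 0.0127 from limma). The pseudocount understates it at this level: with 0.1 in place of 1 it was -2.70.

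Position 113, the other gene called lower in shRUNX1, measured 47.7, 74.8 and 84.7 TPM in pLKO, 19.8, 19.5 and 18.4 TPM in shDNMT3A and 8.48, 6.03 and 7.58 TPM in shRUNX1. It kept 27.9% and 10.7%, and all shRUNX1 libraries were lower than all shDNMT3A libraries, with a log2 difference of -1.29 (standard error 0.21, adjusted p = 0.0242 from limma). Its lowest control was pLKO replicate 1.

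These 5 calls differed in how far they held. In 17 alternatives the gene at position 16012 was called in all 17, with adjusted p-values from 0.000297 to 0.014 in limma. The gene at position 16193 was called in 10, that at 12341 in 9, that at 113 in 8 and that at 4971 in 7, and all 5 kept their sign in all 17. When any one of the 6 knockdown libraries was left out, only the gene at position 16012 was called. Calls over all features were fewer in those fits too. They ran from 0.0733% to 0.161% lower and from 0.0935% to 0.167% higher, against 0.627% and 0.515% in the main fit. Without pLKO replicate 1, which enters the fit through the estimate of the spread and not through the difference, 8 members were called lower and 7 higher, among 363 (2.41%) and 692 (4.59%) of all features. Without pLKO replicate 2 the gene at position 4971 was not called and that at position 5615 was.

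**Figure D4:**
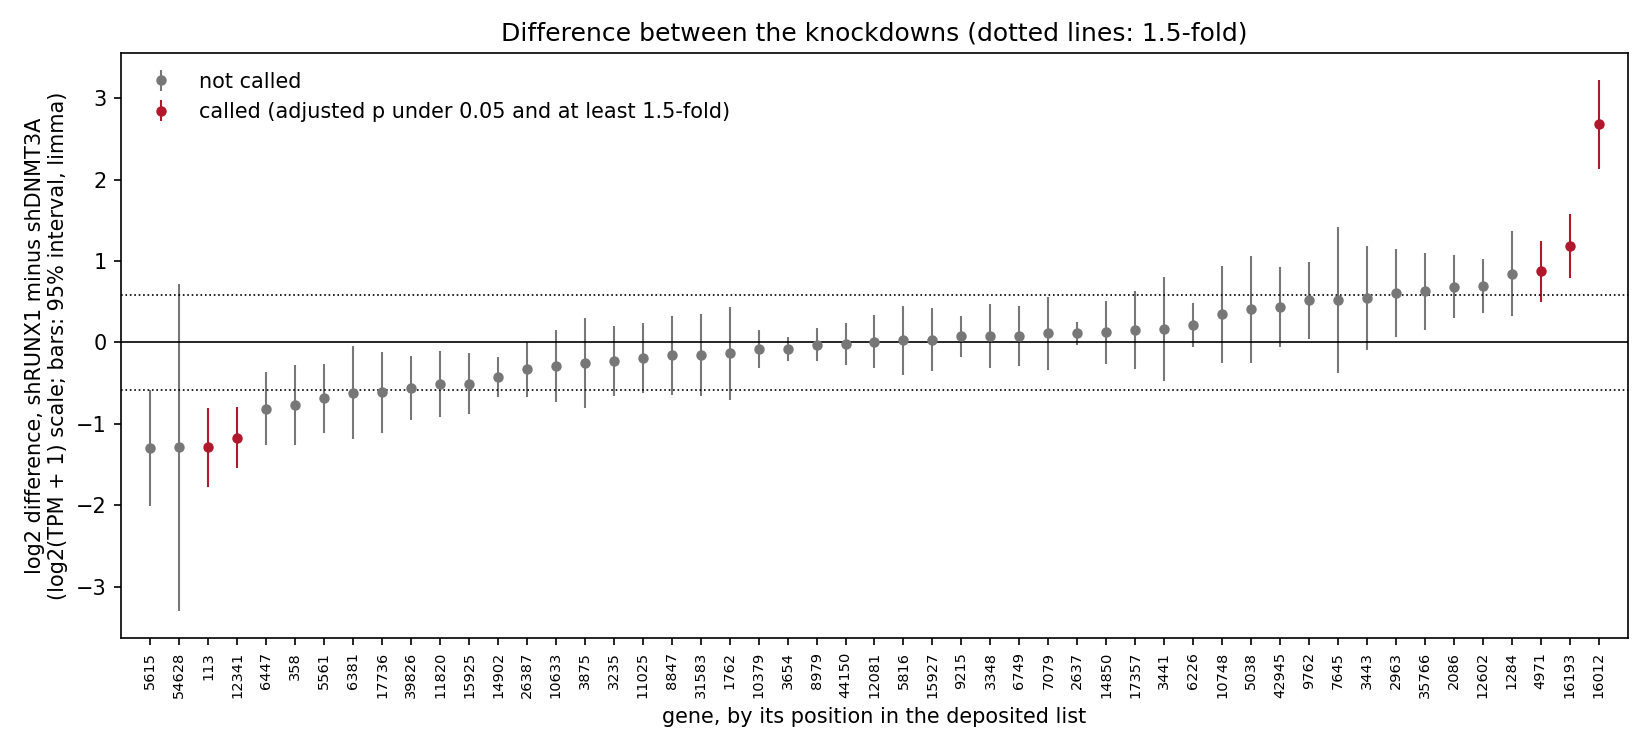
Log2 difference, shRUNX1 minus shDNMT3A, of the 51 genes on the log2(TPM + 1) scale, in order of size; points are limma estimates over 3 libraries a group, bars their 95% intervals, and dotted lines mark 1.5-fold. The 5 called genes (red) run from -1.29 to 2.68, and the bar at position 54628 is the widest.

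For the 46 members that were not called, the test does not show that the knockdowns had equal levels. The 95% interval of the difference lay wholly within 1.5-fold for 14 of the 46 and reached past it for the other 32. Among the former is position 12081, chosen after its values were seen. It measured 46.4, 35.7 and 35.1 TPM in pLKO, 18.0, 19.6 and 20.1 TPM in shDNMT3A and 21.2, 18.0 and 18.9 TPM in shRUNX1, with a log2 difference of 0.01 (95% interval -0.32 to 0.33). For 2 of the 14, at positions 6749 and 5816, all 6 knockdown libraries were under 1 TPM, where a pseudocount of 1 holds the difference near 0, so their intervals say little. By group means position 6749 was 1.70 times as high in shRUNX1 as in shDNMT3A. At position 39826, also under 1 TPM, the log2 difference was -0.56 (95% interval -0.95 to -0.17, adjusted p = 0.197 from limma).

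Other unequal falls did not pass the test, and the genes given here were chosen after their values were seen. The gene at position 5615 had 38.8, 101 and 53.5 TPM in pLKO, 20.7, 17.1 and 19.1 TPM in shDNMT3A and 6.87, 9.37 and 5.57 TPM in shRUNX1. Its log2 difference of -1.29 was as large as that at position 113, but its pLKO libraries spread widely and the adjusted p was 0.102 from limma. Position 12602, one of the more expressed members, had 151, 183 and 192 TPM in pLKO, 49.4, 36.7 and 52.8 TPM in shDNMT3A and 77.8, 71.6 and 74.7 TPM in shRUNX1. It kept 26.4% and 42.6% without overlap, with a log2 difference of 0.69 and an adjusted p of 0.0642 from limma.

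By the plain order of the libraries, all 3 shRUNX1 values were under all 3 shDNMT3A values in 13 of the 51 genes (25.5%), and all over them in 17 (33.3%). Over all 15144 features these shares were 17.5% and 25.4%. In the remaining 21 genes the knockdowns overlapped.

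The spread between replicates was larger among the members than among all 9550 features in the knockdowns and smaller in pLKO. The median coefficient of variation over the 3 libraries was 12.2% in shDNMT3A and 13.1% in shRUNX1 for the members, against 6.31% and 5.89% for all. In pLKO it was 14.8% against 25.2%. The knockdown values compare unlike levels, since the members were lower there than in pLKO and the median feature was not. The pLKO value of all features includes the low level of replicate 1. How much either adds to these differences was not tested. The rule favours genes whose pLKO libraries lie close together, since the lowest control must clear the limit. The widest interval belonged to position 54628, a gene chosen after its values were seen, with 31.7, 58.5 and 32.5 TPM in pLKO, 14.4, 18.3 and 7.90 TPM in shDNMT3A and 15.8, 0 and 9.74 TPM in shRUNX1. The 0 is the only one among the members, and the 95% interval of its log2 difference ran from -3.30 to 0.72.

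In the order of the list, 44 of the 51 genes (86.3%) lay in the first 20000 positions, as did 87.8% of the 9550 features. The smallest gap between members was 2 positions, found for 2 pairs. In the pair at positions 3441 and 3443, the first kept 23.2% in shDNMT3A and 27.2% in shRUNX1, and the second 5.73% and 15.3%. In the pair at positions 15925 and 15927, the first kept 50.96% and 35.6%, and the second 14.2% and 14.4%, so neighbours in the list did not share a depth of fall. Nothing further about their relation is known, because the order of the list is not explained in the sources used here.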

How the data were processed

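RNA from K562 pools was sequenced in 3 libraries each of pLKO, shDNMT3A and shRUNX1. The authors deposited TPM per feature, 1 file a library, with 2-part fixed-width lines (8 characters of name, then the value) that were joined by row. The submitters' processing notes name HISAT2 2.1.0, RSEM 1.3.1 and the build GRCh38.p13; the annotation release is not given in the sources used here. TPM holds no depth, so no counting interval or detection floor is given. The pLVX libraries have another list and were not used here.

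Members and lists were chosen with earlier results of these data known. Groups and replicate numbers come from the labels. Genes were named by a rule: the near-complete losses, the called members with the largest difference between the knockdowns in each direction and without overlap, the 4 highest in pLKO, and the 2 on each side of the threshold; others are marked in the text. The test was limma 3.58.1 in R 4.3.3 on log2(TPM + 1), with empirical Bayes and a trend. It was checked on simulated TPM in which each feature had the same spread in all groups. The spread in pLKO was larger in the data, so the check does not cover that inequality. A fold change on the log2(TPM + 1) scale understates the change of low genes. Python 3.11.15 did the rest. Alternatives were other limits of the rule, another pseudocount, no filter, the 6 knockdown libraries alone, a replicate block, 3 other scalings and each library left out. Leaving out the 10 highest features was chosen after seeing the data.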

Additional observations from a re-analysis of the deposited data

Results flagged for a closer look

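For 5 of the 51 genes the fall from pLKO differed between the knockdowns by the test of the difference itself (limma, one fit of all 9 libraries). Of the 51 genes, 2 (3.92%) were called lower in shRUNX1 against 0.627% of all features, and 3 (5.88%) higher against 0.515%. These shares are not on equal terms, since the rule favours members whose pLKO libraries lie close together. The log2 difference, shRUNX1 minus shDNMT3A, was 2.68 at position 16012, 1.18 at position 16193 and 0.87 at position 4971. It was -1.29 at position 113 and -1.17 at position 12341. When any one knockdown library was left out, only position 16012 was called. Calls over all features then ran from 0.0733% to 0.161% lower and from 0.0935% to 0.167% higher. In each of the 5 the 3 libraries of one knockdown lay on one side of the 3 of the other. A called difference mostly brings this with it, so it is no added support. The shRUNX1 libraries lay all under in 25.5% of the 51 genes and all over in 33.3%, against 17.5% and 25.4% of all features. Groups of 3 libraries are too small for a check of single outlying values.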

How the results depend on the processing

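The rule took 51 genes. It took 22 with a fold of 2, 114 with a fold midway between 1 and 1.5, 29 with at least 10 TPM in pLKO and 109 with median-ratio scaling, and from 52 to 197 when 1 library was left out, the highest without pLKO replicate 1. The other counts of the set were within 1.5 times. With the members kept, near-complete losses numbered 2, or 3 with a limit of 20%, and the genes lower in shRUNX1 numbered from 24 to 28. The median left ran from 26.4% to 31.8% in shDNMT3A and from 24.9% to 32.3% in shRUNX1. The calls between the knockdowns, 2 lower and 3 higher in shRUNX1, depended on the fit. The lower calls were 0 at an adjusted p under 0.01 (0.145% of all features), 1 with no filter on low values (0.21%), 8 with only the 6 knockdown libraries (2.41%), 5 with median-ratio scaling (1.61%) and 7 with quantile normalization (2.27%). The higher calls were 1 at an adjusted p under 0.01 (0.165%) and 7 with only the 6 knockdown libraries (4.58%). With 1 library left out they ran from 0 to 8 lower (0.0733% to 2.41% of all features) and from 1 to 7 higher (0.0935% to 4.59%) in limma. The highest counts and shares were those without pLKO replicate 1. Where a pLKO library was left out, 48 members were tested. The replicate block gave 0 lower (0.158% of all features) and 2 higher (0.218%), and not called under it were positions 113, 12341 and 4971 (limma adjusted p = 0.089, 0.0659 and 0.136; 7 lower and 8 higher at an unadjusted p under 0.05). With the mean of its group taken off each library, correlations of same-numbered libraries ran from -0.11 to 0.085, against -0.074 to 0.089 for different numbers. They are correlations of deviations and not of expression levels. The same number correlated best in 5 of 18 cases. These values cannot tell whether libraries of the same number shared a batch. Leaving out a library also lowers the number of samples in the fit; other causes were not tested. How depth limits these values is unknown, since TPM does not keep it.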
